A study of Mus musculus with 8 samples.

Results

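The Hox genes were taken as every array probe whose gene name begins with Hoxa, Hoxb, Hoxc or Hoxd and a number. That gave 42 of the 31093 gene names on the array, which are 39 protein-coding Hox genes of the clusters A to D and the 3 antisense transcripts Hoxa11os, Hoxb5os and Hoxd3os1. They are measured by 48 of the 39429 probes, printed as 66 spots. Tissue came from 8-week-old female BALB/cA Jcl mice and is labelled small intestine, or jejunum in the design text. All mice received an intraperitoneal injection. In the irradiated groups the intestine was frozen 4 h after exposure to a beam of carbon ions, a kind of particle radiotherapy. The unirradiated samples are labelled 0 Gy and 4 h. The 4 groups of 2 arrays were 0 Gy with saline, 8 Gy with saline, 8 Gy with FGF1, and 8 Gy with FGF1/CPP-C, and the design text gives 12 h for the pretreatment. FGF1 is fibroblast growth factor 1, a ligand of FGF receptors, and FGF1/CPP-C is known as FGF1 joined to a cell-penetrating peptide. The replicate number is also the slide, each slide holding 1 array of every group. The labels do not say whether replicates came from separate animals, so p-values speak only to the spread of these arrays, which may be technical.

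Hox genes encode homeodomain transcription factors that set position along the body axis. They lie in clusters in which gene order follows the order of expression, with low paralog numbers anterior and high numbers posterior. In the gut they are known chiefly from the mesenchyme, where different paralogs mark successive regions from foregut to hindgut, and their proteins bind DNA together with partners of the Pbx and Meis families. Expression of the clusters is set up in the embryo by signals that include retinoic acid and is held by Polycomb and Trithorax proteins.

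The values below turn on 4 probes, so stretches of 30 bases of these 60-base probes are shown, 5′ to 3′ in the sense of the transcript. Capitals mark the longest run of bases that the probe shares with the probe of any other Hox name on the array, to show how far the probes of these related genes differ. Coordinates are of the whole probe and refer to mm9, the mouse build of the array files. Whether a probe lies in coding sequence or in a UTR was not determined here.
Hoxc4, chr15:102867213-102867272, plus strand, bases 13 to 42: agtgttgatgTGAAATGCCCcgtgatcaat
Hoxc5, chr15:102847783-102847842, plus strand, bases 22 to 51: ttttatgattATTAATGCTtatgctctttg
Hoxc6, chr15:102842243-102842302, plus strand, bases 31 to 60: ttctcgaatattTAATAAAActgatattat
Hoxb5os, chr11:96152394-96152453, minus strand, bases 31 to 60: gatcgcccatgccaatttAGAATGAAAtag
The longest shared run was 10 bases for Hoxc4, with Hoxc13, and 9 for Hoxc5, with Hoxa5. It was 8 bases for Hoxc6 and 9 for Hoxb5os, with Hoxc11. Among the Hoxc4, Hoxc5 and Hoxc6 probes themselves it was 7 bases, and between any probes of different Hox names it was at most 11. The starts of the Hoxc6 and Hoxc5 probes are 5540 bases apart and those of Hoxc5 and Hoxc4 19430 bases.

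Levels are given on a log2 scale relative to the 75th percentile of the array, so 0 is a bright probe and most Hox probes are negative. No value was carried below -6.74, the lowest level at which every array still had spots well above background. The 75th percentile ranged from 1735 to 2165 intensity units, and from 66.9% to 71.1% of all probes were well above background. Replicate arrays correlated across probes with r from 0.983 to 0.994. Enterocyte markers were high on all 8 arrays, with a list median from 6.15 to 7.02. The stomach antrum markers set 3 arrays apart, 0 Gy saline replicate 1, 8 Gy saline replicate 2 and 8 Gy FGF1 replicate 1, with a median of 13 genes from 2.39 to 3.24 against -5.64 to -2.39 on the other arrays. In 2 of those 3, 0 Gy saline replicate 1 and 8 Gy saline replicate 2, pancreatic acinar genes were high as well, at 5.29 and 2.78. Their median was -1.74 on 8 Gy FGF1/CPP-C replicate 1, against -4.27 to -3.24 on the remaining arrays.

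Anterior and central Hox genes were detected in this tissue and posterior ones rarely were. A gene was counted as measured where 1 or more groups had a probe well above background on both arrays, and 19 of the 39 genes were. Of the anterior paralogs 1 to 3, 5 of 8 genes were measured, of the central paralogs 4 to 8, 12 of 15, and of the posterior paralogs 9 to 13, 2 of 16. By cluster the counts were 8 of 11 in HoxA, 6 of 10 in HoxB, 4 of 9 in HoxC and 1 of 9 in HoxD. No test was made of these counts, because probes differ in how well they bind.

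**Figure D1:**
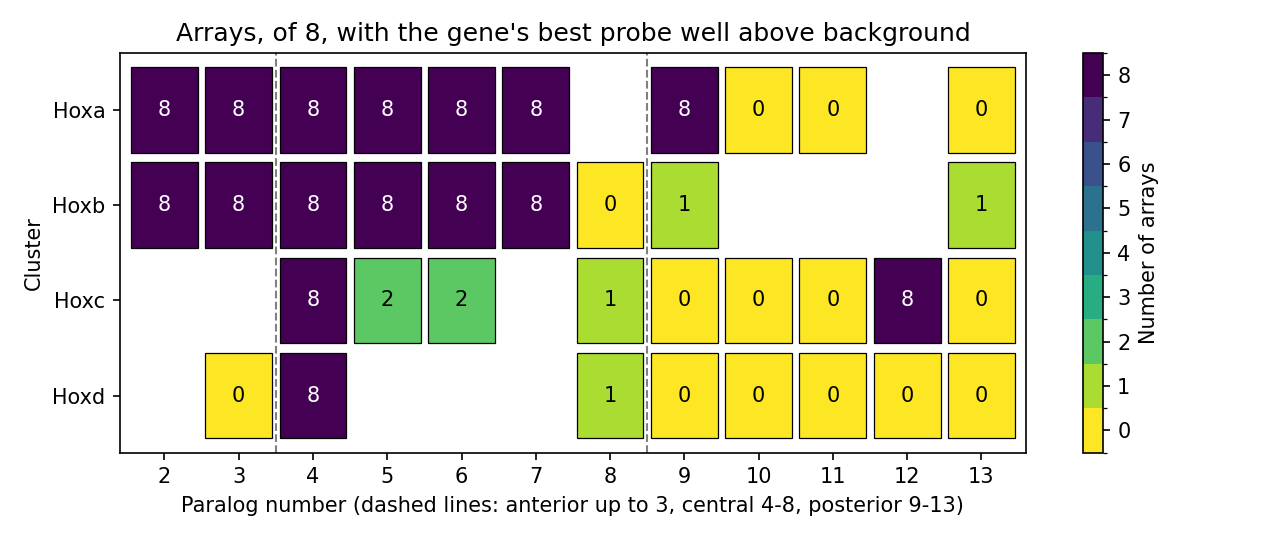
Each square is 1 of the 36 Hox genes of paralogs 2 to 13, placed by cluster (rows) and paralog number (columns), and its colour and number give the arrays, of 8, on which its best probe was well above background. HoxA and HoxB are filled from paralog 2 to 7, HoxD only at paralog 4, and Hoxc5 and Hoxc6 stand at 2 arrays.

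All of Hoxa2 to Hoxa7 and Hoxb2 to Hoxb7 were well above background on all 8 arrays, as were Hoxc4 and Hoxd4. Among posterior genes this held for Hoxa9 and for Hoxc12, whose neighbours Hoxc9, Hoxc10, Hoxc11 and Hoxc13 were well above background on no array. In HoxD, Hoxd4 was the sole measured gene, and 7 of the 9 HoxD genes were well above background on no array. Hoxb1, whose product acts in the hindbrain, and the terminal genes Hoxa13 and Hoxd13, known from the hindgut and the limb, were on none either.

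A further 4 genes, singled out after their values were seen, cleared background on a single array each and enter no comparison. Hoxb13, a gene of the tail end of the body and the distal colon, was at -5.14 on 8 Gy FGF1/CPP-C replicate 1 and at the floor on the other 7 arrays. Hoxb9 also cleared background only there, at -5.84, although 0 Gy saline replicate 1 read -5.75 without clearing it. Hoxc8 was at -4.86 on 8 Gy saline replicate 1 and at the floor elsewhere, and Hoxd8 cleared background on that array alone, at -5.82. Of the antisense transcripts, Hoxa11os was measured on all 8 arrays and Hoxb5os on 6, while 1 of the 2 Hoxd3os1 probes cleared background on 8 Gy FGF1 replicate 2 alone, at -4.40. In all 23 of the 48 probes were tested, 20 of them well above background on all 8 arrays, and 20 of the 48 were well above background on no array.

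Promoter sequence was the other feature looked at, as the number of CG dinucleotides in the 300 bases around the start site in the RefSeq table of build GRCm38.p6. Windows were found for 24 Hox names, 26 windows in all, and not for Hoxc5, Hoxc6 or Hoxb5os. Their median was 14.5 CG against 7 over all 32851 windows. It was 11.5 over the 10 windows of measured Hox names and 17.5 over the 16 of the others, against 17 over the windows of all measured genes. These are counts of letters and no test was made.

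The comparison of 8 Gy saline with 0 Gy saline asks what carbon ions alone did. No Hox probe passed the threshold, an adjusted p under 0.05 in limma over all probes tested, where 0.39% of all probes did. Of the 23 probes 7 were positive, where 40.5% of all probes were, and the median difference was -0.07 on the log2 scale, with -0.05 over all probes. The 3 with an unadjusted p under 0.05 were all central genes and all lower after irradiation, where 7.2% of all probes were lower at that p.

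Hoxa4, a central HoxA gene, was at -3.20 and -3.27 in the 0 Gy saline arrays and at -3.70 and -3.88 in the 8 Gy saline arrays. The groups did not overlap, and the difference was -0.55 ± 0.13 (SE, n = 2 per group, limma adjusted p = 0.198), or -0.50 on slide 1 and -0.60 on slide 2. Hoxd4, the only measured HoxD gene, read -4.12 and -4.16 without irradiation and -4.46 and -4.55 with it. Its arrays also stood apart (-0.37 ± 0.11, limma adjusted p = 0.269). Hoxb6 went from -3.57 and -3.54 to -3.78 and -3.86 (-0.27 ± 0.09, limma adjusted p = 0.333). None of these 3 is a call.

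The groups did not overlap for 2 Hox probes higher after 8 Gy, where 15.3% of all probes were so placed, and for 6 lower, where 22.8% were. Those lower include Hoxc5, which was well above background in neither group. Over the 20 probes well above background on all 8 arrays, 2 were higher, where 15.7% of all such probes were, and 4 lower, where 23.2% were. Hoxb2, an anterior gene, was among those higher (0.14 ± 0.16, limma adjusted p = 0.808). With 2 arrays against 2 an exact permutation test of a single probe cannot go below p = 0.333.

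The mean of the 3 irradiated groups was set against 0 Gy saline as well. Again 0 Hox probes passed in limma, where 2.39% of all probes did. An unadjusted p under 0.05 was found for 5, 3 upward, where 9.28% of all probes had one, and 2 downward, where 11.2% did. Of the 3 upward, Hoxc6 entered the test only through the FGF1/CPP-C arrays, which are part of the irradiated side. Over the 20 probes well above background on all 8 arrays 2 were upward at that p, where 9.37% of all such probes were, and 2 downward. Hoxd4 was at -4.12 and -4.16 in the unirradiated arrays and at -4.38 to -4.62 in the 6 irradiated ones, which all lay below them. The difference was -0.36 ± 0.09 (limma adjusted p = 0.103), -0.33 on slide 1 and -0.39 on slide 2. It was the 1 Hox probe of 23 whose 6 irradiated arrays all lay below both unirradiated ones, where 12.1% of all probes did so, and 1 lay wholly above, where 10.4% did. This comparison shares its 0 Gy arrays and the 8 Gy saline arrays with the one before.

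The comparison of 8 Gy FGF1 with 8 Gy saline asks what FGF1 added. The 23 differences lay between -0.20 and 0.28 on the log2 scale, and 14 were positive, where 53.5% of all probes were. None passed in limma, where 0% of all probes did, and none had an unadjusted p under 0.05, where 283 of all probes (1.03%) had one upward and 216 (0.787%) downward. The median Hox difference was 0.03, with 0.01 over all probes. The groups did not overlap for Hoxb7 (0.21 ± 0.12) and Hoxa4 (0.20 ± 0.13) upward, where 11.1% of all probes were so placed, and for Hoxc12 downward (-0.20 ± 0.25), where 7.93% were. Each of the 3 had a limma adjusted p of 1. The standard error was under 0.25 for 17 of the 23 probes.

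In both FGF1/CPP-C arrays Hoxc4, Hoxc5, Hoxc6 and Hoxb5os read higher than in all 6 other arrays, by 0.52 or more on the log2 scale. These 4 are shown because of that order, and Hoxc5 and Hoxc6 entered the test only through the FGF1/CPP-C arrays. No Hox probe passed against 8 Gy saline. Hoxc5 alone passed, against FGF1, and of the other settings tried it passed there with quantile normalisation alone (1.62, limma adjusted p = 0.0135). Hoxc4, Hoxc5 and Hoxc6 are adjacent genes of the anterior end of the HoxC cluster, and Hoxb5os is an antisense transcript of the HoxB cluster whose probe lies between those of Hoxb7 and Hoxb6.

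Hoxc5 was at -6.14 and -6.46 in the 0 Gy saline arrays, at -6.50 and -6.74 in the 8 Gy saline arrays, at -6.70 and -6.73 in the FGF1 arrays, and at -5.01 and -5.05 in the FGF1/CPP-C arrays. It was well above background on the FGF1/CPP-C arrays and on no other, and these 2 arrays lay 1.09 above the highest of the rest. Because that group alone let the probe into the test, a difference was built into its selection. Against FGF1 it was 3.22-fold higher (1.69 ± 0.14 on the log2 scale, n = 2 per group, limma adjusted p = 0.0463), where 0.0182% of all probes passed upward. That fold is set against signals not well above background, so it is imprecise. The difference was 1.69 on slide 1 and 1.68 on slide 2, and with the slide as a block the limma adjusted p was 0.0962, no longer a call.

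Against 8 Gy saline Hoxc5 was 3.01-fold higher (1.59 ± 0.14, 1.49 on slide 1 and 1.69 on slide 2) with a limma adjusted p of 0.0717. Those saline arrays were not well above background either. The call against FGF1 was also lost when any 1 of the 8 arrays was left out (limma adjusted p from 0.0819 to 0.368). The size stayed between 1.66 and 1.71 in those fits, and with normexp background correction, which raises low signals, it was 0.53.

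Hoxc6 was at -6.65 and -6.22 in the 0 Gy saline arrays, -6.37 and -6.74 in the 8 Gy saline arrays, -6.74 and -6.08 in the FGF1 arrays, and -4.44 and -4.34 in the FGF1/CPP-C arrays. As for Hoxc5, only the FGF1/CPP-C arrays were well above background, with a gap of 1.64 to the next array. On slide 1 the difference from 8 Gy saline was 1.92 and on slide 2 it was 2.40. Hoxc6 was 4.48-fold higher than in 8 Gy saline (2.16 ± 0.26, limma adjusted p = 0.118) and 4.06-fold higher than in FGF1 (2.02 ± 0.26, limma adjusted p = 0.138). Neither is a call, and both folds are set against signals not well above background.

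Hoxb5os was at -5.61 and -5.69 in the 0 Gy saline arrays, -5.76 and -5.97 in the 8 Gy saline arrays, -6.39 and -5.74 in the FGF1 arrays, and -4.11 and -3.73 in the FGF1/CPP-C arrays. The FGF1 arrays were not well above background, and the FGF1/CPP-C arrays lay 1.51 above the next. The difference from 8 Gy saline was 1.65 on slide 1 and 2.25 on slide 2. Hoxb5os was 3.86-fold higher than in 8 Gy saline (1.95 ± 0.24, limma adjusted p = 0.118) and 4.45-fold higher than in FGF1 (2.15 ± 0.24, limma adjusted p = 0.0968). This difference did not pass either.

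Hoxc4, the only one of the 3 HoxC genes measured on all 8 arrays, was at -3.90 and -3.65 in 0 Gy saline, -3.71 and -3.83 in 8 Gy saline, -4.26 and -3.24 in FGF1, and -2.72 and -2.39 in FGF1/CPP-C. The FGF1/CPP-C arrays were the highest, by 0.52, and the 2 FGF1 arrays were the farthest apart. From 8 Gy saline it differed by 0.99 on slide 1 and 1.44 on slide 2. Over both slides the difference was 1.21 ± 0.32 from 8 Gy saline (2.32-fold, limma adjusted p = 0.336) and 1.19 ± 0.32 from FGF1 (2.29-fold, limma adjusted p = 0.402). In a bulk sample, more cells that make a transcript and more of it per cell cannot be told apart.

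**Figure D2:**
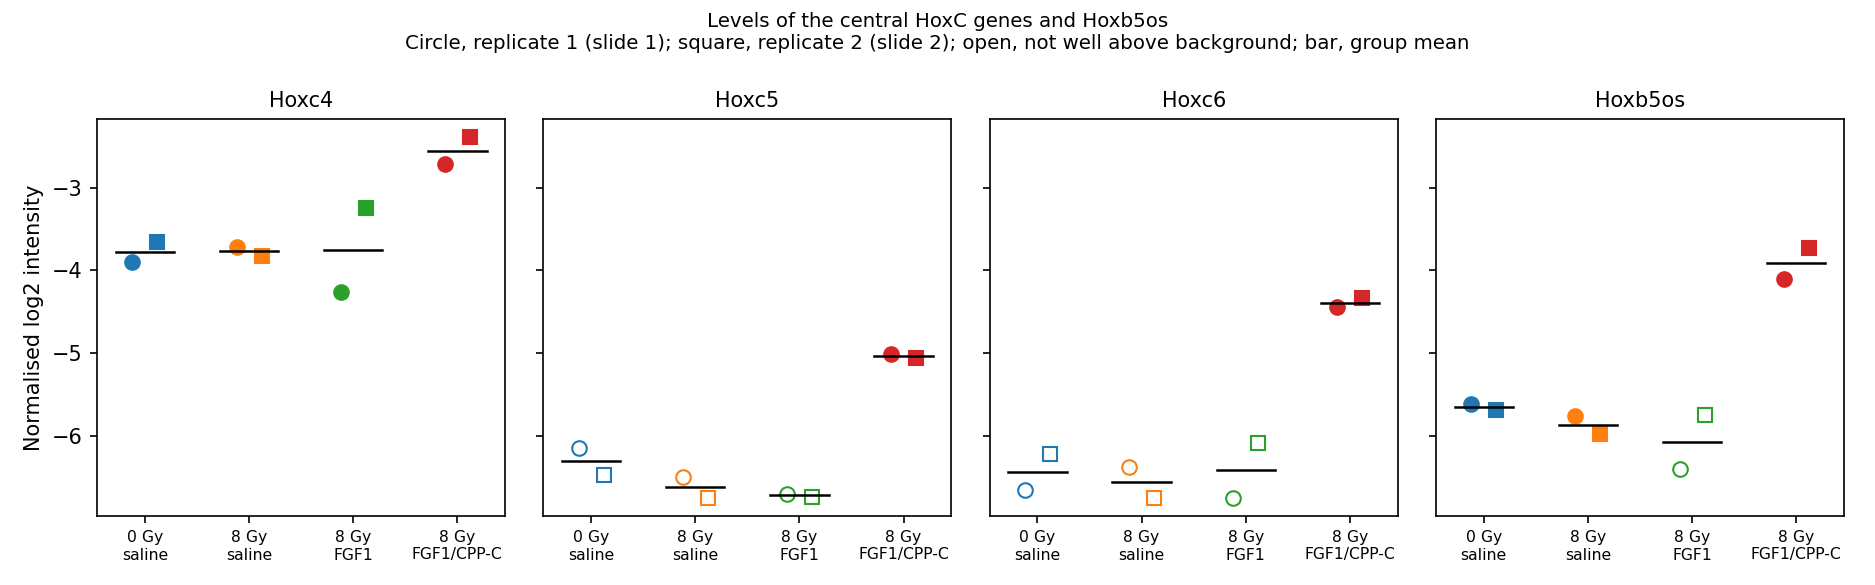
Normalised log2 intensity of Hoxc4, Hoxc5, Hoxc6 and Hoxb5os on each of the 8 arrays, by group, with circles for replicate 1, squares for replicate 2, open symbols for arrays not well above background and bars for group means. In every panel both FGF1/CPP-C arrays lie above the other 6, and Hoxc5 and Hoxc6 are open everywhere else.

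Across the family against 8 Gy saline, 19 of the 23 probes were positive, where 56% of all probes were, and the median was 0.22, with 0.03 over all probes. That median was 0.38 without 8 Gy saline replicate 1, 0.14 without 8 Gy saline replicate 2 and 0.44 without FGF1/CPP-C replicate 2. No probe passed in limma, where 0.0255% of all did, and 9 had an unadjusted p under 0.05 upward, where 7.16% of all did. Over the 20 Hox probes well above background on all 8 arrays, which no single group let in, 16 were positive with a median of 0.21, where 56.2% of all such probes were positive. Among these 20 the groups did not overlap for 11 upward, where 25.5% of all such probes were so placed, and for 0 downward, where 19.5% were. Unadjusted p was under 0.05 for 6 of these 20 upward, where it was for 7.02% of all such probes.

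Among the protein-coding genes of these 20 probes, all 10 central probes were positive with a median of 0.46. Of the 6 anterior probes 4 were positive with a median of 0.07, and of the 3 posterior probes 2 were, with a median of 0.21. The central members beside Hoxc4 were Hoxa5 (0.63 ± 0.20, limma adjusted p = 0.375), Hoxb4 (0.55 ± 0.21, limma adjusted p = 0.41), Hoxb6 (0.54 ± 0.09, limma adjusted p = 0.183), Hoxa4 (0.49 ± 0.13, limma adjusted p = 0.339) and Hoxb5 (0.43 ± 0.20, limma adjusted p = 0.451). The remaining 4, Hoxa6, Hoxb7, Hoxa7 and Hoxd4, lay between 0.05 and 0.24. This comparison shares its 8 Gy saline arrays with that of 8 Gy saline with 0 Gy saline, in which Hoxa4, Hoxb6 and Hoxd4 were lower. Hoxa4 read -3.15 and -3.45 in FGF1/CPP-C, against -3.20 and -3.27 in 0 Gy saline. Central and anterior genes were not tested against each other.

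Hoxb4, a central HoxB gene known from blood stem cells, was at -1.69 and -1.28 in 0 Gy saline, -1.34 and -1.46 in 8 Gy saline, -1.56 and -1.08 in FGF1, and -0.72 and -0.96 in FGF1/CPP-C. Both FGF1/CPP-C arrays were the highest, but by only 0.12, less than the distance between replicates of 0 Gy saline, of FGF1 and of FGF1/CPP-C. Hoxb6 was at -3.57 and -3.54, -3.78 and -3.86, -3.79 and -3.79, and -3.34 and -3.23 in the same order of groups. Its 2 FGF1/CPP-C arrays were highest by 0.20, above the 0 Gy saline arrays as well as the irradiated ones.

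Against FGF1 19 of 23 probes were positive, where 53% of all probes were, with a median of 0.22 and 0.01 over all probes. It was 0.14 without FGF1/CPP-C replicate 1 and 0.41 without FGF1/CPP-C replicate 2. Hoxc5 was the 1 probe called, where 0.0437% of all were called in either direction. As it entered the test only through the FGF1/CPP-C arrays, this call is not that of an unselected probe. Over the 20 probes measured on all 8 arrays, 16 were positive, where 53.1% of all such probes were, and the median was 0.16. Unadjusted p was under 0.05 for 3 of these 20 upward, where it was for 5.18% of all such probes, and for 0 downward. The groups did not overlap for 7 of them upward, where 24.8% of all such probes were so placed. For 1 probe, Hoxb3, they were apart downward (-0.22 ± 0.19, limma adjusted p = 0.802), where 21.4% of all such probes were. The comparisons of FGF1/CPP-C with saline and with FGF1 share the FGF1/CPP-C arrays, so their likeness is no separate evidence. Leaving out the 3 arrays with high antrum markers together, Hoxc5 was at 1.71 (limma adjusted p = 0.479) and Hoxc6 at 1.69 (limma adjusted p = 0.492). This leaves 1 array in each of the other 3 groups, so the FGF1/CPP-C pair alone gives the spread and the lone arrays are assumed to vary like it.

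Both FGF1/CPP-C arrays were above all 6 others for 8 of the 23 Hox probes, where 10.8% of all probes were, and below for 0, where 10.1% were. Over the 20 probes measured on all 8 arrays it was 5, where 11.1% of all such probes were. These 5 were Hoxb4, Hoxb5, Hoxb6, Hoxc4 and 1 of the 2 Hoxb3 probes.

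**Figure D3:**
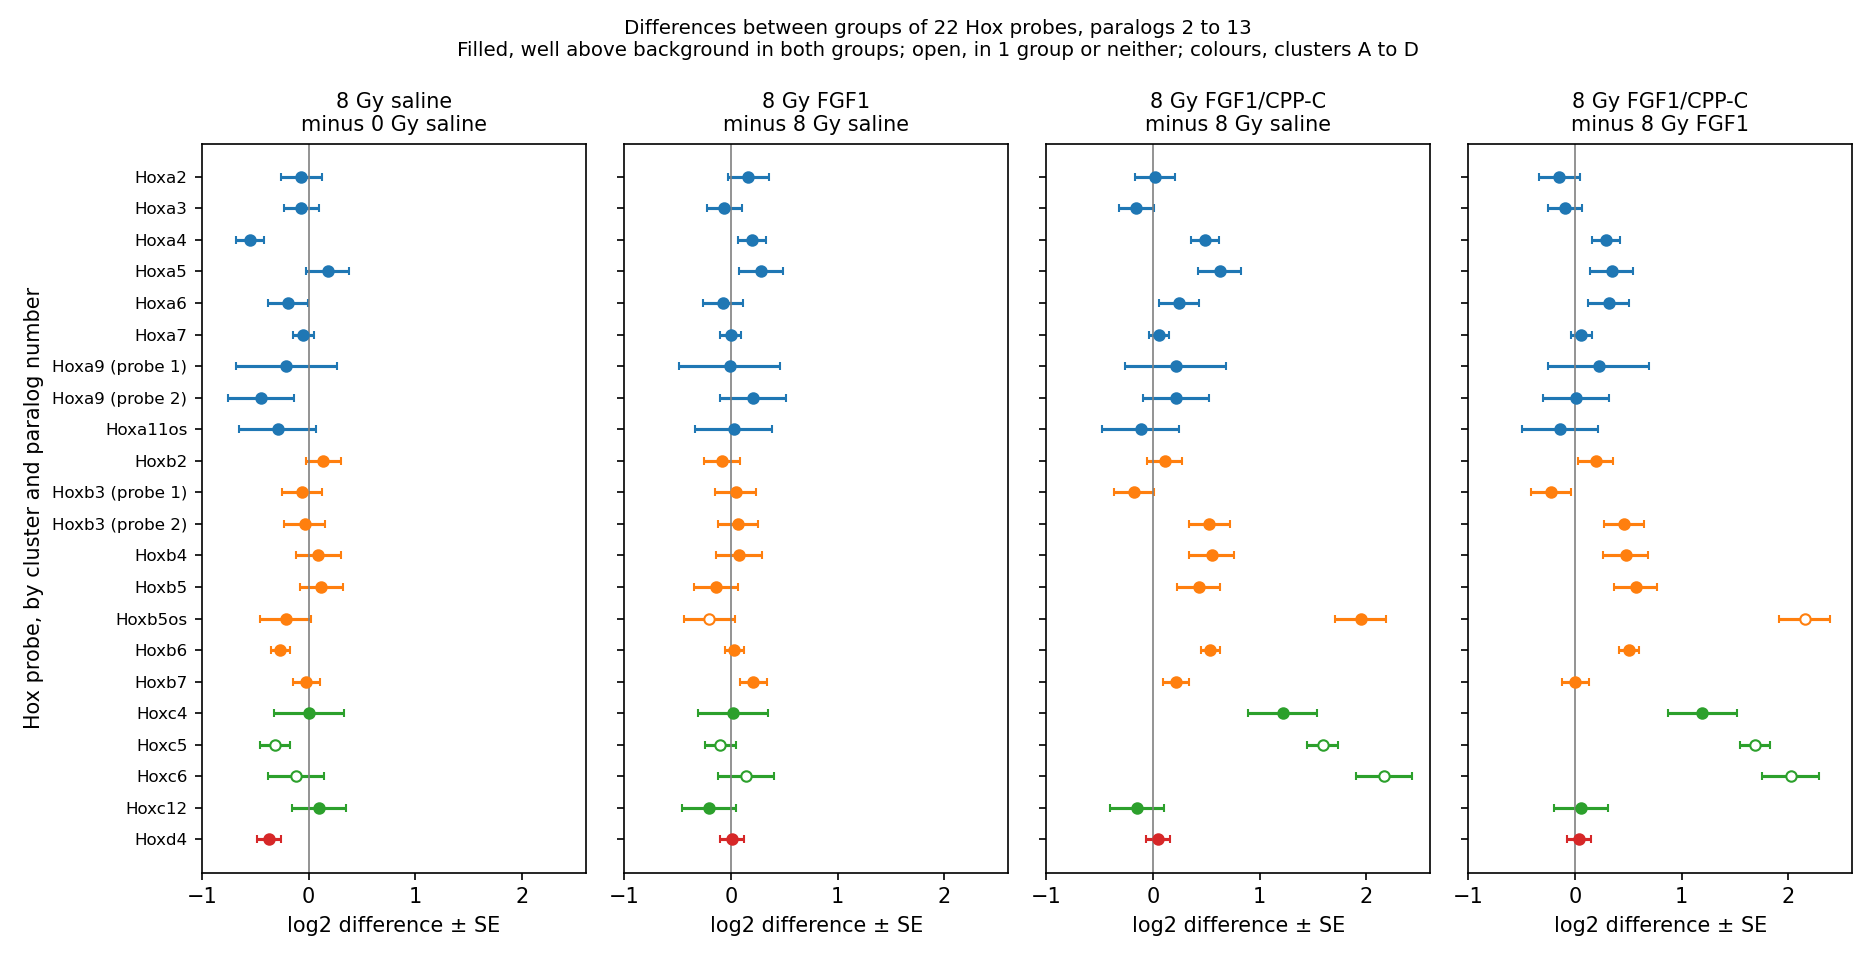
Log2 difference with its standard error for 22 of the 23 Hox probes tested, those of paralogs 2 to 13, ordered by cluster and paralog number, in 4 comparisons, with open symbols where a probe was well above background in 1 group or neither. Differences lie near 0 in the comparisons of 8 Gy with 0 Gy saline and of FGF1 with saline, and reach 2.16 for Hoxc6 and 1.95 for Hoxb5os in that of FGF1/CPP-C with 8 Gy saline.

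Both Hoxa9 probes separated the slides and not the groups. The probe at chr6:52174165-52174224 read -4.00, -3.98, -4.17 and -3.86 on slide 1 (unirradiated saline, irradiated saline, FGF1 and FGF1/CPP-C) and -4.60, -5.03, -4.85 and -4.72 on slide 2. The probe at chr6:52175595-52175654 read -4.30, -4.66, -4.68 and -4.53 on slide 1 and -4.83, -5.36, -4.93 and -5.06 on slide 2. All 4 arrays of slide 1 lay above all 4 of slide 2 for 2 of the 23 Hox probes, these 2, where 5.8% of all probes were so placed, and for 0 the other way, where 0.415% were. Hoxa9 is the posterior gene next to Hoxa7 in the cluster. The slides differed by 0.80 and 0.50 on the log2 scale for these probes, and neither passed in limma in any of the 5 comparisons. In 8 Gy saline against 0 Gy saline the second probe was at -0.45 ± 0.31 (limma adjusted p = 0.641), and at 0.16 without the 3 arrays of high antrum markers.

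The probes of Hoxb3, an anterior gene, differed in sign. The probe at chr11:96209002-96209061 was 0.53 ± 0.19 higher after FGF1/CPP-C than after saline (limma adjusted p = 0.393) and that at chr11:96207114-96207173 was -0.18 ± 0.19 (limma adjusted p = 0.704). The first ranged from -5.28 to -4.57 over the 8 arrays and the second from -2.99 to -2.46, and no direction is given for Hoxb3. Without 8 Gy saline replicate 1 the second was at 0.087.

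Some markers of gut region also set the FGF1/CPP-C arrays apart. Gkn3, an antral gastrokine gene, was at 8.37 and 8.23 in 0 Gy saline, 7.18 and 8.12 in 8 Gy saline, 8.17 and 7.20 in FGF1, and -1.66 and -1.82 in FGF1/CPP-C. It was the 1 gene of 13 measured antrum markers that passed. It stood at -9.39 ± 0.40 from 8 Gy saline (limma adjusted p = 0.00288), where 0.0255% of all probes passed. From FGF1 it differed by -9.43 ± 0.40 (limma adjusted p = 0.00281), where 0.0437% passed. At an unadjusted p under 0.05 7 of the 13 were lower against saline, where 4.64% of all probes were, and 6 against FGF1, where 3.62% were. All 13 were negative in both comparisons, where 56% and 53% of all probes were positive. The median of the 13 was -3.77 and 3.24 in 8 Gy saline, 2.41 and -4.17 in FGF1, and -4.59 and -5.64 in FGF1/CPP-C. Thus 1 array of each comparison group was far above the other for the list, while Gkn3 was high on both. Tff1, Aqp5, Dpcr1 and Vsig1 were at the floor on both FGF1/CPP-C arrays.

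The 8 measured ileum markers had a list median of 0.91 and 1.19 on the FGF1/CPP-C arrays, against -0.59 to 0.82 on the other 6. In limma 0 passed, with 2 of 8 upward at an unadjusted p under 0.05 against saline, where 7.16% of all probes were, and 2 against FGF1, where 5.28% were. Fabp6 and Slc10a2, which define ileal bile acid uptake, were at -3.20 and -3.45 and at -3.38 and -3.65 there, within the range of the other arrays except for the higher Slc10a2 value, which lay above it. Fgf15, of the same list, was at -4.63 and -5.02 on the FGF1/CPP-C arrays and from -5.35 to -2.98 on the others. All 9 jejunum markers were positive against saline, where 56% of all probes were. Of these 3 were higher at an unadjusted p under 0.05, where 7.16% of all probes were, and 0 passed in limma. Their median was 5.86 and 5.78 on the FGF1/CPP-C arrays and 4.88 to 6.05 on the others. These medians are not over the same genes on every array. Sis had no value on both 0 Gy saline arrays and on 8 Gy saline replicate 1, and Onecut2 had none on the latter. That array gave the 6.05. The 6 duodenum markers had a median of 3.70 and 3.54 on these arrays against 4.05 to 5.02 on the others. In limma 0 passed, with 0 of 6 at an unadjusted p under 0.05 against saline and 3 against FGF1, 1 upward and 2 downward, where 5.28% and 3.62% of all probes were. What part the region sampled had in the Hox differences was not tested. Smooth muscle genes, a compartment in which Hox genes are known to be expressed, had a list median of 2.00 and 1.94 on the FGF1/CPP-C arrays and 1.98 to 2.58 on the others. All 12 of these genes were negative against 8 Gy saline, 7 with an unadjusted p under 0.05, where 4.64% of all probes were lower at that p, and 0 passed in limma. The median of the fibroblast and stroma genes was 0.36 and 0.52 there and 0.53 to 0.82 elsewhere. Other lists went the other way against 8 Gy saline. Positive were 8 of 8 T cell genes, 11 of 12 enterocyte genes and 6 of 7 B and plasma cell genes. At an unadjusted p under 0.05 7, 5 and 1 of these were higher, where 7.16% of all probes were, and 0 passed in limma. What part cell composition had in the Hox differences was not tested.

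**Figure D4:**
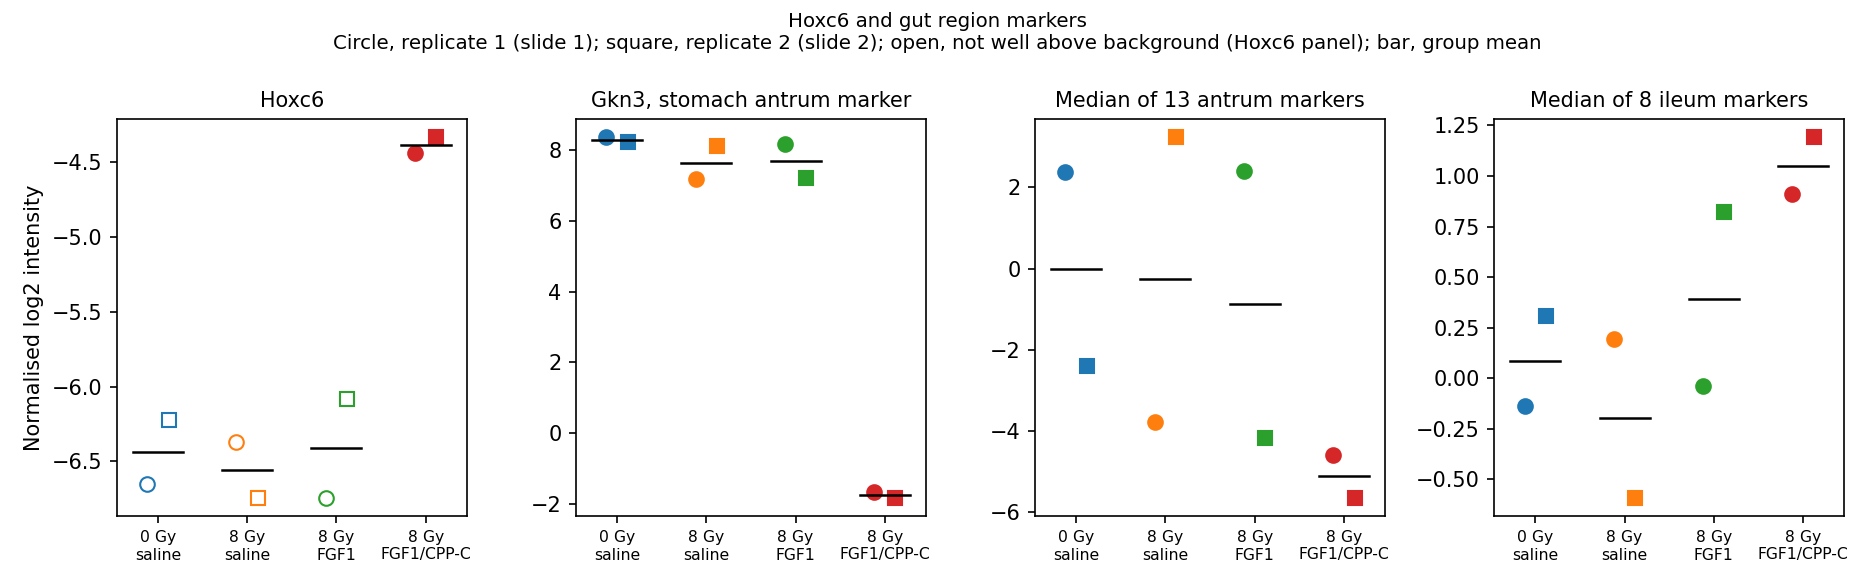
Normalised log2 intensity of Hoxc6, of Gkn3, and the medians of 13 antrum and 8 ileum markers on each array, by group, with symbols for replicates and bars for group means, each panel on its own scale. Both FGF1/CPP-C arrays are highest for Hoxc6 and the ileum median and lowest for Gkn3 and the antrum median, and for the antrum median 8 Gy FGF1 replicate 2 and 8 Gy saline replicate 1 lie close to them.

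Of the Hox partners of the TALE family, 8 of 9 were measured and 0 passed in limma in any of the 5 comparisons. At an unadjusted p under 0.05 2 were lower in 8 Gy saline against 0 Gy saline, where 7.2% of all probes were. At that p 1 was lower in FGF1/CPP-C against saline, where 4.64% were, and 2 in the irradiated groups together, where 11.2% were. The smallest unadjusted p after FGF1/CPP-C against saline was that of Pbx3 (-0.69 ± 0.25, limma adjusted p = 0.395). The median of the 8 genes was -0.18 in that comparison and -0.18 in the irradiated groups together.

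Among the Cdx and ParaHox genes, Cdx1, Cdx2 and Pdx1 were measured and 0 passed in limma, with 2 upward at an unadjusted p under 0.05 in FGF1/CPP-C against saline, where 7.16% of all probes were. The smallest p there was that of Cdx1, an intestinal homeobox factor (0.49 ± 0.17, limma adjusted p = 0.383). Cdx2, the intestinal homeobox factor that acts upstream of posterior Hox genes in the embryo, was at 2.96 and 2.96 in 0 Gy saline, 3.21 and 2.43 in 8 Gy saline, 2.89 and 3.30 in FGF1, and 3.98 and 3.34 in FGF1/CPP-C. The FGF1/CPP-C arrays were the highest, but replicate 2 lay next to the higher FGF1 array (0.85 ± 0.32 from 8 Gy saline, limma adjusted p = 0.409).

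Of the Polycomb and Trithorax regulators 23 of 24 were measured, and 1 passed in the 5 comparisons. Eed, a core subunit of the Polycomb complex that methylates histone H3, rose in the irradiated groups together (0.48 ± 0.07, limma adjusted p = 0.0364). In that comparison 2.39% of all probes passed. At an unadjusted p under 0.05 5 of the 23 were higher there, where 9.28% of all probes were, and 1 was lower, where 11.2% were. In FGF1/CPP-C 0 of the 23 passed in limma against either group, with 4 upward at an unadjusted p under 0.05 against saline, where 7.16% of all probes were, and 2 against FGF1, where 5.28% were. Of the retinoic acid pathway 17 of 19 were measured and 0 passed in limma, with 1 upward and 1 downward at that p in FGF1/CPP-C against saline, where 7.16% and 4.64% of all probes were. Aldh1a2, which makes retinoic acid, had the smallest unadjusted p of them after FGF1/CPP-C, at -0.76 ± 0.17 from saline (limma adjusted p = 0.293). Of 17 regional transcription factors of the gut 14 were measured and 0 passed in limma, with 1 upward at an unadjusted p under 0.05 in FGF1/CPP-C against saline, where 7.16% of all probes were. That was Gata6, a factor of the gut epithelium (0.35 ± 0.13, limma adjusted p = 0.403).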

How the data were processed

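RNA of 8 small intestine samples was hybridised to Agilent 1-colour arrays. Per the file headers, the deposited processed signal is an intensity on a linear scale, with background subtracted and a spatial trend removed per array and nothing scaled across arrays, and the submitters' processing notes name Agilent Feature Extraction 9.5.3.1. The deposited series matrix holds the same linear, uncentred intensity values (ratio 1; replicates 1 and 2 had medians of 674 and 743 for unirradiated saline, 728 and 849 for irradiated saline, 762 and 814 for FGF1, 692 and 816 for FGF1/CPP-C), and as these are levels of 1 colour no direction is involved. From the deposited signals, log2 values were formed, the array's own 75th percentile was subtracted, and a floor was set at -6.74. The 1377 control spots and outlier-marked spots were left out, and spots of a probe were averaged. The 27468 probes for which 1 or more groups had both arrays well above background were fitted with 4 group means (limma 3.58.1 in R 4.3.3, lmFit and eBayes, residual df of 4). P-values were adjusted by Benjamini-Hochberg across all probes tested, with a threshold of 0.05. Figures were drawn with matplotlib 3.10.9.

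Some results for single genes are not reported here. No Hox spot was saturated, and the small number of arrays limits the precision. The Hox members, the lists and the tests were chosen with earlier results of these data known. Probes named with values are those past the threshold and the 3 highest and 3 lowest per comparison among probes whose groups do not overlap, probes of 1 gene that disagree in sign, and for other lists the genes that passed or the one of smallest p. Hoxc4, the other central genes, Hoxa9, Hoxa11os, Cdx2 and the region markers were named after their values were seen. Gene names are those of the array files, and 47 of the 48 Hox probes matched a RefSeq accession. The fit was tested on simulated data with known changes. Alternatives were normexp with an offset of 50, quantile normalisation, the series matrix, other filters on dim probes, the brightest probe of a gene, a fit to the groups compared, the slide as a block, eBayes with trend and robust, leaving out each array and, added after the values were seen, leaving out the 3 arrays with high antrum markers and a floor at 1 intensity unit.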

Additional observations from a re-analysis of the deposited data

How the results depend on the processing

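Of the Hox differences printed with a standard error, and that of the other Hoxa9 probe, refitted under up to 11 alternatives and 8 fits without 1 array each, those of Hoxa9 and of the second Hoxb3 probe changed sign and no other did. In 8 Gy saline against 0 Gy saline the first Hoxa9 probe ranged from -0.73 to 0.32 without 1 array, above 0 without 0 Gy saline replicate 1 (0.091) or 8 Gy saline replicate 2 (0.32), and was 0.62 without the 3 arrays of high antrum markers, and the second 0.16 without those 3. In FGF1/CPP-C against saline the second Hoxb3 probe ranged from -0.44 to 0.087, the latter without 8 Gy saline replicate 1. The median Hox difference moved by less than 0.229, the within-group SD of the median Hox level per array, which is a spread of levels and not of differences. Without 1 array the median difference ranged from 0.14 to 0.44 in FGF1/CPP-C against saline and from 0.14 to 0.41 against FGF1, and with the series matrix it was 0.12 in both. It lay on both sides of 0 in the other 3 comparisons. Where 1 array is left in a group it is assumed to vary like the others. The number of Hox probes called stayed 0 in 8 Gy saline against 0 Gy saline, in FGF1 against saline and in the irradiated mean against 0 Gy saline. For FGF1/CPP-C against FGF1 the 1 call became 0 with normexp, the series matrix, both other filters on dim probes, the brightest probe of each gene, the groups compared alone, eBayes with trend and robust, the 3 arrays with high antrum markers left out and the floor at 1 intensity unit, and ranged from 0 to 0 without 1 array. For FGF1/CPP-C against 8 Gy saline the count went from 0 to 1 with quantile normalisation, for Hoxc5 (1.62, limma adjusted p = 0.0131), and was 0 in all fits without 1 array. The series matrix and the filter on all 8 arrays leave out Hoxc5 and Hoxc6, as they were well above background on 2 arrays. With normexp Hoxc6 fell to 0.93, Hoxb5os to 1.00 and Hoxc5 to 0.52 against saline, over 1.5 times less than reported. With the replicate number, which is the slide, as a block, the Hoxc5 call against FGF1 was lost (count 0, limma adjusted p = 0.0962) and no other Hox call changed. Over all probes the block took the calls from 107 to 42 in 8 Gy saline against 0 Gy saline, 7 to 3 and 12 to 3 for FGF1/CPP-C against saline and FGF1, and 655 to 302 in the irradiated mean. Deviations of same-numbered arrays from their group means correlated with r from -0.52 to 0.54 over all probes, so the numbers were not taken as pairs, but with r from 0.29 to 0.74 over the 23 Hox probes. The causes of these changes were not tested beyond the construction of each alternative. Low signal limits Hoxc5, Hoxc6 and Hoxb5os, whose folds against groups not well above background are imprecise and depend on the processing.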

Other observations

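Hoxc12 was well above background on all 8 arrays, between -5.53 and -4.82, with no neighbour of the HoxC cluster from Hoxc8 to Hoxc11 measured. It did not pass in any comparison, with differences from -0.20 to 0.09. Its probe lies at chr15:102768889-102768948, and 1 probe stands for the gene. Hoxa11os, the antisense transcript of the HoxA cluster, was measured on all 8 arrays, from -5.47 to -4.51, while Hoxa11 itself, printed as 10 spots, was at the floor on all 8.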
